A study of Homo sapiens with 2 samples.

Results

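The 46 genes described here encode proteins of mitosis, from the cyclins and kinases that drive entry to the motors and scaffolds that divide the cell. They were taken by symbol from a given list, and all 46 were found among the 36601 genes of the deposited count tables. By function, 12 are cyclins, kinases, their regulators and partners of the anaphase-promoting complex (APC/C). Another 12 belong to the kinetochore, centromere and spindle checkpoint. A further 11 are spindle motors and microtubule proteins, 6 act in cytokinesis and 5 act on mitotic chromosomes. The genes were measured by single-cell RNA sequencing (10x Genomics Chromium 3′, version 3) in HT1080, an established human fibrosarcoma cell line labelled as wild type. The 4B4 sample received the β1 integrin-blocking antibody 4B4 at 2 µg/ml of medium. The control sample was kept without 4B4, and its label names no other antibody. In both samples about 50 spheroids of 2000 cells each were set in 500 µl of collagen, left to invade for 72 h, and released with collagenase and then trypsin. Each group had 1 library, so no test was possible, and treatment, library and culture cannot be told apart.

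Cyclin A and cyclin B bind and activate CDK1, which starts chromosome condensation and spindle assembly. Kinetochores join chromosomes to spindle microtubules, and the checkpoint holds back the APC/C, a ubiquitin ligase, until all chromosomes are attached. The APC/C with its activator CDC20 then destroys cyclin B, and a ring at the cell's middle completes division. Transcripts of these genes build up from late S phase and peak in G2 and mitosis. That rise runs largely through promoter elements of the cell cycle genes homology region (CHR) type and nearby CCAAT boxes, which bind the factor NF-Y.

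RefSeq promoter windows of GRCh38.p14, 250 bases before to 50 after a transcription start, were at hand for 39 of the 46 genes and gave 46 windows. The CHR letters TTTGAA, read on both strands, were in 31 of these 46 windows (67.4%), against 15.2% of all 35116 windows and 10.4% of the 12920 windows of other genes measured in these libraries. The box CCAAT was in 33 of the 46 windows (71.7%), against 34.6% of all windows and 34.6% of those of other measured genes. Both motifs stood together in 54.3% of the 46 windows, 5.90% of all windows and 3.99% of those of other measured genes. By gene, the CHR letters were found in 6 of 9 cyclin, kinase and APC/C genes with a window, 7 of 10 kinetochore genes, 6 of 10 spindle genes, 5 of 6 cytokinesis genes and 4 of 4 chromosome genes. A match is a run of letters, not a shown site of binding. The stretches below show what the shared letters look like in genes of each function, with 2 spindle genes that hold neither motif. Each is written 5′ to 3′ on the gene's own strand and starts 120 bases before the RefSeq start. Each ends before the first exon base annotated in GENCODE release 29, so none holds exon sequence. Capitals mark TTTGAA and CCAAT or their reverse complements TTCAAA and ATTGG.
CDC20: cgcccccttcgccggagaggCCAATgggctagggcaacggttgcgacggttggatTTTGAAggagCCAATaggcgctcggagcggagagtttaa
NEK2: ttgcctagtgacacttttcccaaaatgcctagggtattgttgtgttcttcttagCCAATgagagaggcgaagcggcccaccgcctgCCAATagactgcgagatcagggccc
CENPF: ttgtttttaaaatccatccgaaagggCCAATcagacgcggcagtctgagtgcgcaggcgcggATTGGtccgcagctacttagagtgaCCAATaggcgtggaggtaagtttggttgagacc
KIF11: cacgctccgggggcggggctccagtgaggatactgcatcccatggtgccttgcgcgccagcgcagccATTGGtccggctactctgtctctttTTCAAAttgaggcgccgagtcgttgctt
KIF20B: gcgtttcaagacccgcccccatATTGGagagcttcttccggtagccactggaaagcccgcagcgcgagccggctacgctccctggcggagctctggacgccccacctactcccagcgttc
MKI67: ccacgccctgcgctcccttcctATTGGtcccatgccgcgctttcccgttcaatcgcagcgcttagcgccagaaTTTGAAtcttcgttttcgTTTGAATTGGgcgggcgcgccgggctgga
KIF2C: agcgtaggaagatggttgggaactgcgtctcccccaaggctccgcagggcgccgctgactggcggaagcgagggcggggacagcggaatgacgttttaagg
CKAP2: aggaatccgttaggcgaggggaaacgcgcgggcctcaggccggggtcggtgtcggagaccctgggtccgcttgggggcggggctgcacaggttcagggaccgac

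The stretch of CDC20 lies at chr1:43358861-43358954 (plus strand) and that of NEK2 at chr1:211675631-211675741 (minus strand), each just outside the annotated gene. The CENPF stretch, at chr1:214603075-214603194 (plus strand), ends where the annotated gene begins. It holds 3 of the 4 CCAAT matches of its window and not its 1 CHR match. For KIF11 the stretch lies at chr10:92593010-92593129 (plus strand), 157 bases from the annotated gene, with a CHR starting at base -28 and a CCAAT box at base -53, both on the reverse strand. The KIF20B stretch lies at chr10:89701470-89701589 (plus strand), 21 bases from its gene, and shows 1 of the 2 CCAAT matches of its window and none of its 2 CHR matches. MKI67 has its stretch at chr10:128126424-128126543 (minus strand), 39 bases from its gene, with CHR matches at bases -47 and -29. The second of these shares its last base with a reverse CCAAT box at base -24. KIF2C, at chr1:44739717-44739817 (plus strand), and CKAP2, at chr13:52455868-52455971 (plus strand, within the annotated span of CKAP2 but in none of its exons), held neither motif in the whole window.

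Barcodes were kept as cells from 1000 genes upward unless mitochondrial transcripts made up over 20% of their UMIs (unique molecular identifiers, 1 per captured transcript). The 4B4 library then had 1385 of 1759 barcodes and the control library 3402 of 3642. Their kept cells held 116451080 UMIs in the 4B4 library and 127218114 in the control library. The median cell was about as deep again in the 4B4 library, with 68556 UMIs against 32914 in the control library. Median mitochondrial shares were 7.63% in 4B4 cells and 9.16% in control cells. The libraries shared 2 barcodes, of which 0 were kept in the 4B4 library and 2 in the control library. Of 12 markers of leukocytes, endothelium, epithelium and red cells, 10 stayed under 5 UPM (UMIs of the gene per 1000000 UMIs summed over kept cells) in both libraries, at 1.66 or less in 4B4 and 2.00 or less in control cells. None was at 0. PECAM1 (45.8 in 4B4, 30.3 in control) and CD68 (38.4 in 4B4, 26.5 in control) were above that floor. The 12 together summed to 89.5 UPM in 4B4 and 63.0 in control cells, and whether this bears on the mitosis genes was not tested.

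All 46 mitosis genes were lower in the 4B4 library when UMIs were scaled to the library total, and 6 of them, named below, were higher instead when counted as UMIs per cell. Each log2 ratio divides the 4B4 level by the control level, and its 95% interval covers counting error only. Together the genes made up 675.8 UPM (671 to 681) in the 4B4 library and 1853 UPM (1845 to 1860) in the control library, a log2 ratio of -1.46 (-1.47 to -1.44). A gene with at least 5 UPM in either library counted as measured. It was called lower at 1.5-fold or more with its interval on the same side. By that rule 46 of 46 were called lower and 0 higher, while over all 11359 measured genes 5.82% were called lower and 2.1% higher. Of the 46, 39 reached 5 UPM in both libraries. The other 7, CDC25C, NEK2, CDCA3, BUB1, HJURP, CDCA8 and KIF20A, reached it through the control library alone, where they were the higher, so their count adds nothing. The median log2 ratio was -1.59 for the mitosis genes and -0.01 for all measured genes. From sums alone, fewer cells with these transcripts and fewer transcripts per such cell cannot be told apart, and sorting cells by mitosis transcripts, as done further on, parts them only in part. Among cells of 20000 to 60000 UMIs (502 in 4B4 and 2449 in control), the median log2 ratio was -2.42. That window ends below the 4B4 median of 68556 UMIs, while the control median of 32914 lies within it. Cells with at least 15 of the genes, counted further on at equal depth, had median depths of 92296 UMIs in 4B4 and 43462.5 in control. Most such 4B4 cells thus lay above the window. Counted as mean UMIs per cell, the genes summed to 56.8 in 4B4 cells and 69.3 in control cells. On that scale the median of all genes stood at 1.16 (log2), the mitosis genes at -0.42, and 11 of 46 were called lower, against 0.214% of all genes.

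**Figure D1:**
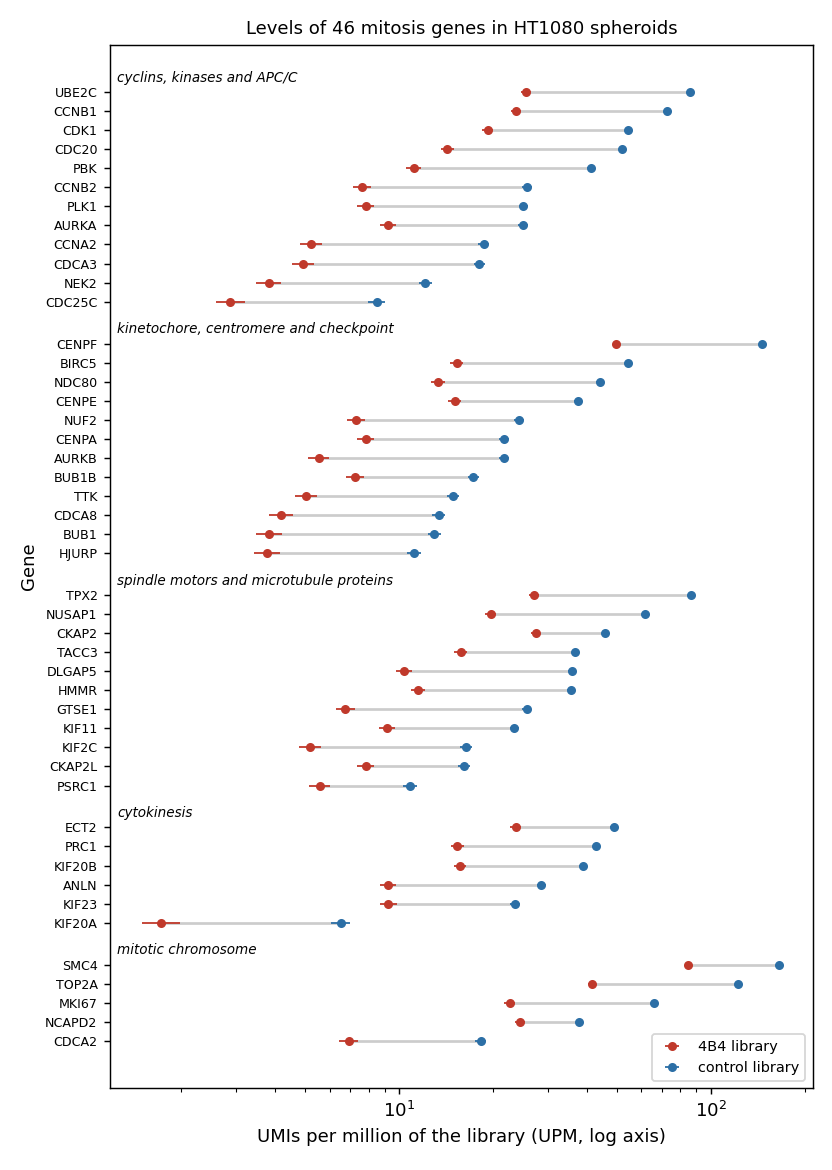
Level of each of the 46 genes in UPM (log axis) in the 4B4 library (red) and the control library (blue), grouped by function. Bars are 95% counting intervals. Every red point lies left of its blue point; as UMIs per cell, SMC4, NCAPD2, CKAP2, CKAP2L, PSRC1 and ECT2 would lie right of it.

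The cyclins, kinases and APC/C genes summed to 136 UPM in the 4B4 library and 439 UPM in the control library, with a median log2 ratio of -1.72. CDK1, the kinase that drives mitosis, had 19.3 UPM in 4B4 and 54.4 UPM in control cells, a log2 ratio of -1.50. Its partner CCNB1 (cyclin B1) had 23.7 UPM in 4B4 and 72.3 UPM in control cells, or -1.61. CCNA2 (cyclin A2), which acts from S phase on, had 5.23 UPM in 4B4 and 18.7 UPM in control cells, or -1.84. The cyclins thus stood lower by about as much as, or more than, the kinase they bind. CCNB2 (cyclin B2) had 7.62 UPM in 4B4 and 25.8 UPM in control cells. CDC25C, the phosphatase that activates CDK1, had 2.88 UPM in 4B4 and 8.49 UPM in control cells. On the APC/C side, the activator CDC20 had 14.3 UPM in 4B4 and 52.0 UPM in control cells, a log2 ratio of -1.86. UBE2C, the enzyme that hands ubiquitin to the APC/C, had 25.6 UPM in 4B4 and 86.0 UPM in control cells, or -1.75. Both carried ratios larger in size than that of CDK1. PLK1, a kinase of spindle and centrosome, had 7.82 UPM in 4B4 and 25.1 UPM in control cells. AURKA, the kinase of spindle poles, had 9.22 UPM in 4B4 and 25.1 UPM in control cells and the smallest ratio of these 12 (-1.44). The widest was that of PBK, a mitotic kinase, with 11.2 UPM in 4B4 and 41.2 UPM in control cells (-1.88). The centrosome kinase NEK2 (-1.67) and CDCA3 (-1.87), which promotes entry into mitosis, lay between these bounds.

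Kinetochore, centromere and checkpoint genes summed to 138 UPM in the 4B4 library and 419 UPM in the control library, with a median log2 ratio of -1.62. The chromosomal passenger complex, which corrects wrong attachments, is covered by its kinase and 2 partners. AURKB, the kinase, had 5.54 UPM in 4B4 and 21.7 UPM in control cells, the ratio furthest below 0 among all 46 genes (-1.97, -2.10 to -1.85). BIRC5 (survivin) had 15.3 UPM in 4B4 and 54.3 UPM in control cells, or -1.82. CDCA8 (borealin) had 4.19 UPM in 4B4 and 13.4 UPM in control cells, or -1.68. All 3 were called lower, as was every other gene of the group. NDC80, which grips microtubules, had 13.3 UPM in 4B4 and 44.1 UPM in control cells. Its dimer partner NUF2 had 7.28 UPM in 4B4 and 24.3 UPM in control cells. Their log2 ratios, -1.72 and -1.74, were within each other's counting intervals. The centromeric histone CENPA had 7.83 UPM in 4B4 and 21.8 UPM in control cells (-1.47), and its chaperone HJURP had 3.78 UPM in 4B4 and 11.2 UPM in control cells (-1.57). CENPF, a large protein of the outer kinetochore, had 49.8 UPM in 4B4 and 146 UPM in control cells (-1.55). The kinetochore motor CENPE had 15.1 UPM in 4B4 and 37.5 UPM in control cells (-1.31). Among the checkpoint kinases, BUB1 had 3.84 UPM in 4B4 and 13.0 UPM in control cells (-1.76), and TTK had 5.04 UPM in 4B4 and 14.9 UPM in control cells (-1.57). BUB1B, which encodes the checkpoint protein BubR1, had 7.25 UPM in 4B4 and 17.3 UPM in control cells. Its ratio (-1.26) was the nearest to 0 of the group.

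Spindle motors and microtubule proteins summed to 147 UPM in the 4B4 library and 395 UPM in the control library, with a median log2 ratio of -1.63 and the widest spread of the groups. TPX2, which targets and activates AURKA, had 27.2 UPM in 4B4 and 86.2 UPM in control cells (-1.67). KIF11, the kinesin that pushes spindle poles apart, had 9.18 UPM in 4B4 and 23.5 UPM in control cells (-1.36). KIF2C, a kinesin that shortens microtubules, had 5.20 UPM in 4B4 and 16.4 UPM in control cells (-1.66). The 4 genes with a window and neither motif were KIF2C, CENPE (-1.31), TACC3 (-1.22) and CKAP2 (-0.74). NCAPD2, with both motifs, had the ratio nearest to 0 of all 46 genes (-0.63). How the motifs relate to the ratios was not tested. NUSAP1, a microtubule bundler, had 19.7 UPM in 4B4 and 61.8 UPM in control cells. DLGAP5, which steadies kinetochore fibres, had 10.4 UPM in 4B4 and 35.9 UPM in control cells (-1.79), and HMMR, a spindle pole protein, had 11.5 UPM in 4B4 and 35.6 UPM in control cells (-1.63). GTSE1, a microtubule plus-end protein, had 6.74 UPM in 4B4 and 25.7 UPM in control cells, the group's furthest from 0 (-1.93). TACC3, which binds clathrin on spindle fibres, had 15.8 UPM in 4B4 and 36.9 UPM in control cells (-1.22). Nearest to 0 stood CKAP2, a microtubule stabiliser, with 27.5 UPM in 4B4 and 45.9 UPM in control cells (-0.74, -0.80 to -0.68). CKAP2 lost its call in cells thinned at random to 17000 UMIs (-0.53) and with each cell weighing the same (-0.53). PSRC1 had 5.58 UPM in 4B4 and 10.8 UPM in control cells (-0.96), and CKAP2L had 7.82 UPM in 4B4 and 16.2 UPM in control cells (-1.05). These 3 were lower in UPM but higher per cell, with log2 ratios of 0.43 for CKAP2, 0.21 for PSRC1 and 0.12 for CKAP2L on mean UMIs per cell.

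The cytokinesis genes summed to 75.0 UPM in the 4B4 library and 190 UPM in the control library, with a median log2 ratio of -1.41. PRC1, which bundles the antiparallel microtubules of the midzone, had 15.4 UPM in 4B4 and 42.9 UPM in control cells (-1.48). Among the kinesins it works with, KIF23, a motor of centralspindlin, had 9.27 UPM in 4B4 and 23.6 UPM in control cells (-1.35). KIF20A had 1.73 UPM in 4B4 and 6.51 UPM in control cells, and KIF20B had 15.7 UPM in 4B4 and 39.0 UPM in control cells. KIF20A had the widest interval of the 46 genes, as its counts were the lowest (-1.91, -2.14 to -1.68). ANLN, the scaffold of the contractile ring, had 9.25 UPM in 4B4 and 28.7 UPM in control cells (-1.63). ECT2, the exchange factor that activates RhoA at the cell's middle, had 23.7 UPM in 4B4 and 48.9 UPM in control cells. Its log2 ratio was -1.05 in UPM but 0.12 on mean UMIs per cell.

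Genes of mitotic chromosomes summed to 180 UPM in the 4B4 library and 410 UPM in the control library, and the median of their log2 ratios was -1.40. TOP2A, the topoisomerase that untangles sister DNA, had 41.7 UPM in 4B4 and 122 UPM in control cells (-1.55). MKI67, the Ki-67 antigen that coats mitotic chromosomes, had 22.7 UPM in 4B4 and 65.9 UPM in control cells (-1.54), and CDCA2, which brings a phosphatase to chromatin, had 6.91 UPM in 4B4 and 18.3 UPM in control cells (-1.40). The 2 condensin subunits were nearer to 0. SMC4 had 84.5 UPM in 4B4 and 165 UPM in control cells (-0.97), and NCAPD2 had 24.5 UPM in 4B4 and 37.9 UPM in control cells (-0.63, -0.70 to -0.56). On mean UMIs per cell both turned higher, at 0.20 for SMC4 and 0.54 for NCAPD2. NCAPD2 also lost its call under TMM scaling (-0.58), in cells thinned at random to 17000 UMIs (-0.55) and with each cell weighing the same (-0.55).

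Other genes of the cell cycle were read for comparison, in UPM alone and not as UMIs per cell. Over all measured genes 5.82% were called lower and 2.1% higher, and the median log2 ratio was -0.01. Of 24 further mitosis genes used below as a reference, 23 were measured and 22 called lower, with a median log2 ratio of -1.46 and KNSTRN (-0.57) the exception. Of 34 other mitosis genes, 32 were measured and 27 called lower, with a median of -1.16. TROAP (-2.00), a spindle assembly protein, FOXM1 (-1.75), a transcription factor of G2 genes, MAD2L1 (-1.59), a checkpoint protein, and LMNB1 (-1.54), a nuclear lamin, had the largest ratios there. The 5 not called were CDC25B (0.02), CENPW (-0.39), NCAPG2 (-0.43), G2E3 (-0.47) and NCAPD3 (-0.57). Subunits of the same machines that cells make throughout the cycle behaved otherwise. Of 31 APC/C, kinetochore and cohesin subunits of that kind, 30 were measured and the median was -0.08. Of these 30, 0 were called either way, which is near the shares of all genes. Their extremes were CENPX (-0.46), SMC3 (-0.38), ANAPC11 (0.14) and CDC26 (0.14). All 20 S phase genes were called lower, with a median of -1.01. TK1 (-1.79), TYMS (-1.69) and RRM2 (-1.37), which supply DNA precursors, and CLSPN (-1.34), of the replication checkpoint, led them.

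The mitosis genes were found together in a minority of cells, and that minority was smaller in the 4B4 library. To compare cells at equal depth, each was thinned at random to 17000 UMIs, which left 1311 4B4 cells and 3099 control cells, with 74 4B4 cells and 303 control cells too shallow. At this depth the median cell held a UMI of 3 of the 46 genes in the 4B4 library and 4 in the control library. Cells with at least 15 of the genes made up 8.31% (6.88 to 9.94) of 4B4 cells and 24.3% (22.8 to 25.8) of control cells. Without thinning the shares were 18.1% of 4B4 cells and 28.5% of control cells, a smaller gap between libraries of unequal depth. Cells with 7 to 14 of the genes were 4.88% of 4B4 cells and 9.68% of control cells. Cells with at least 30 of the genes were 3.59% of 4B4 cells and 12.3% of control cells. The most in any cell was 43 in the 4B4 library and 46 in the control library. Cells with at least 15 of the genes held 67.5% of all mitosis gene UMIs in the 4B4 library and 86.4% in the control library. Their median was 28 genes in 4B4 and 30 in control cells. Before thinning, such cells were deeper than the rest in both libraries, with medians of 92296 against 69795 UMIs in 4B4 and 43462.5 against 31993 UMIs in control cells.

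**Figure D2:**
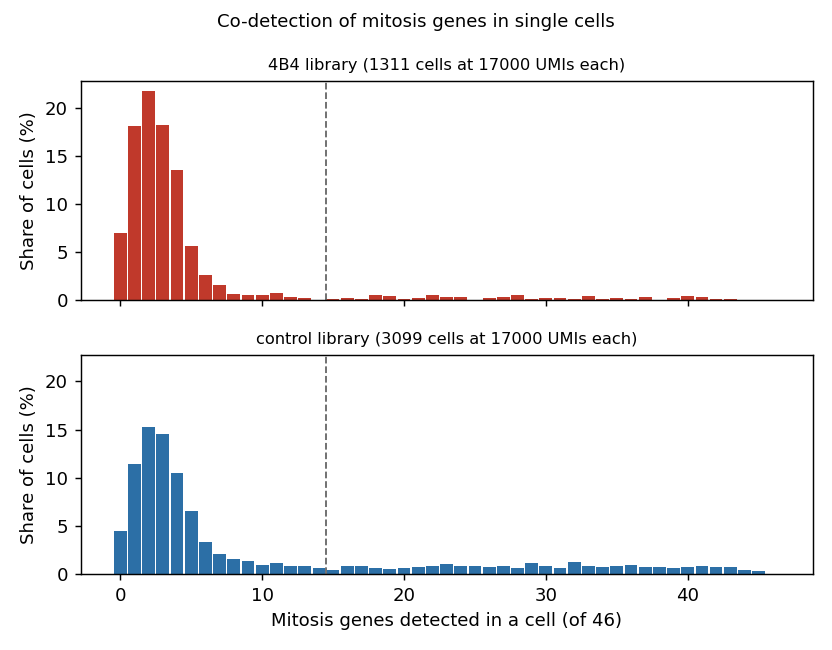
Share of cells (%) by how many of the 46 mitosis genes had a UMI at 17000 UMIs per cell, in 1311 4B4 cells (top) and 3099 control cells (bottom). The dashed line marks 15 genes, and to its right lie 8.31% of 4B4 cells and 24.3% of control cells.

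Gene by gene, the share of cells with a UMI at equal depth was lower in the 4B4 library for 46 of 46 genes, and at full depth for 37 of 46. No such counts over all genes were at hand, and at full depth the 4B4 cells were the deeper ones. UBE2C was seen in 9.84% of 4B4 cells and 24.5% of control cells, or 16.4% of 4B4 cells and 30.01% of control cells at full depth. Cells with none of the 24 reference mitosis genes should hold little of it, and there the share was 2.70% of 482 4B4 cells and 4.51% of 820 control cells. Median depths before thinning were 71495 UMIs in all thinned 4B4 cells and 35073 UMIs in such control cells. In cells without reference genes they were 67454.5 UMIs in 4B4 and 31186.5 UMIs in control. For MKI67 the shares were 8.54% of 4B4 cells and 23.8% of control cells, against 1.04% of 4B4 cells and 2.07% of control cells without reference genes. For AURKB they were 5.19% of 4B4 cells and 15.9% of control cells, against 1.04% of 4B4 cells and 1.10% of control cells without reference genes. These genes marked a subset of cells in both libraries. SMC4 did so least, with UMIs in 58.9% of 4B4 cells and 66.4% of control cells and still in 52.9% of 4B4 cells and 49.5% of control cells without reference genes. Across the 46 genes the share without reference genes had a median of 2.39% in 4B4 and 3.29% in control cells. How much of it is free RNA was not tested.

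Co-detection was read by function and for 20 pairs of partner proteins. At least 6 of the 12 cyclin, kinase and APC/C genes were seen in 5.57% of 4B4 cells and 18.01% of control cells. At least 6 of the 12 kinetochore genes were seen in 5.64% of 4B4 cells and 17.3% of control cells, and at least 6 of the 11 spindle genes in 5.95% of 4B4 cells and 17.7% of control cells. The shares of the 3 groups lay close together within each library. At least 3 of the 6 cytokinesis genes were seen in 7.55% of 4B4 cells and 21.9% of control cells, and at least 3 of the 5 chromosome genes in 10.7% of 4B4 cells and 26.5% of control cells. No 4B4 cell held all 12 cyclin, kinase and APC/C genes (0 of 1311), while 45 of 3099 control cells did. Pairs met more often than the product of their shares gives, by a median factor of 5.44 in 4B4 cells and 2.80 in control cells, and the factor was higher in 4B4 for 20 of 20 pairs. That factor has a higher ceiling where genes are rarer, as they were in 4B4. AURKB and BIRC5 met in 51 4B4 cells (6.33 from the product of shares) and 413 control cells (133), so that 75.0% of AURKB-positive 4B4 cells and 83.8% of such control cells held BIRC5. NDC80 and NUF2 met in 48 4B4 cells (7.76 from the product) and 417 control cells (136). CDC20 and UBE2C met in 68 4B4 cells (11.6 from the product) and 517 control cells (191). SMC4 and NCAPD2, both condensin, met little above the product in either library, by factors of 1.17 in 4B4 and 1.15 in control cells. Within cells that held at least 8 reference mitosis genes, the median factor was 1.05 in 4B4 and 1.03 in control cells. Where both genes are common, as many are in that class, the factor has a low ceiling. All 58 CENPE-positive 4B4 cells of the class held CENPF, yet the factor was 1.04. For pairs with so common a gene, values this low do not tell whether the 2 met independently. The ceiling was higher for rarer genes such as BUB1 and BUB1B, seen in 48 and 58 of 95 4B4 cells. Their factor was 1.02 in 4B4 and 1.11 in control cells, and independence was not tested. The 2 widest departures there were CCNB1 with CCNB2, at 1.33 in 4B4 and 1.11 in control cells, and PLK1 with KIF20A, at 0.94 in 4B4 (7 cells) and 1.26 in control cells (133 cells).

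**Figure D3:**
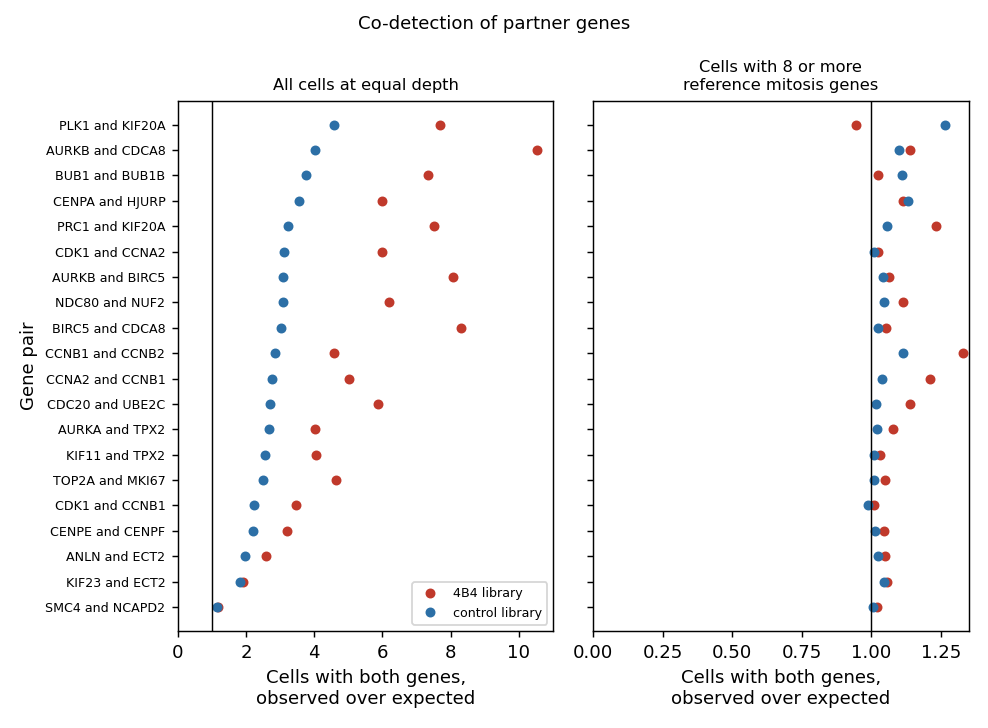
Cells with both genes of a pair, observed over the number expected from their separate shares, in the 4B4 library (red) and the control library (blue) at 17000 UMIs per cell. Left, all cells, where the medians are 5.44 in 4B4 and 2.80 in control; right, cells with 8 or more reference mitosis genes, where the medians are 1.05 in 4B4 and 1.03 in control. The vertical line marks 1.

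Levels were also read within classes of cells. Cells were sorted by the 24 reference mitosis genes, none of which is among the 46. Because such a class is cut on mitosis transcripts, a lower level per cell by itself moves cells out of the class and keeps levels inside it alike, so its size and its level are not separate measures. Cells with 8 or more of them were 95 of 1311 in the 4B4 library (7.25%, 5.90 to 8.79) and 606 of 3099 in the control library (19.6%, 18.2 to 21.0). In these cells the 46 genes summed to 5300 UPM (5188 to 5413) in 4B4 and 6437 UPM (6388 to 6486) in control cells, a log2 ratio of -0.28 (-0.31 to -0.25), while the median of all genes there was 0.11. Without thinning the class held 185 cells (13.4%) in 4B4 and 828 cells (24.3%) in control and the ratio was -0.95. The log2 ratio of the class shares was -1.43 at equal depth but -0.87 without thinning. Without thinning the cut of 8 met deeper cells in 4B4 than in control (medians of 68556 and 32914 UMIs), so it was unequal. With all UMIs of the cells sorted at equal depth, the median log2 ratio of the 46 genes was -0.25, against -0.27 when thinned. Which of share and level differed more thus depends on whether cells were sorted at equal depth. In cells with 3 to 7 reference genes (108 in 4B4 and 424 in control) the 46 genes summed to 715 UPM in 4B4 and 1256 UPM in control cells, a log2 ratio of -0.81 (-0.90 to -0.73). In cells with 0 to 2 (1108 in 4B4 and 2069 in control) they summed to 202 UPM in 4B4 and 248 UPM in control cells, or -0.30 (-0.35 to -0.24). Cells with 8 or more, at equal depth, held 62.5% of the mitosis gene UMIs in 4B4 and 78.8% in the control library. Their median depth before thinning was 90755 UMIs in 4B4 and 44420 in control cells, and their mitochondrial share 5.96% in 4B4 and 6.84% in control cells. When the control's levels were kept and only the class shares were set to those of 4B4, the median log2 ratio of the 46 genes was -1.13. With the control's class shares in both libraries it was -0.31. Within the class the median number of reference genes was 12 in 4B4 and 13 in control cells. Cells with 8 to 10 reference genes gave a log2 ratio of -0.19 (33 4B4 and 172 control cells), and those with 11 to 14 gave -0.29 (39 4B4 and 214 control cells). Those with 15 or more gave 0.04 (-0.005 to 0.09), over 23 4B4 and 220 control cells. These bins are set by the number of mitosis transcripts too, so likeness within the highest one partly follows from how it was cut.

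Gene by gene, ratios within the class were smaller in size than over all cells, except that of PSRC1. Of the 46, 5 were called lower and 0 higher, where 2.92% of all 11690 measured genes were called lower and 10.5% higher, and 39 had ratios below 0. At this thinning the interval lay below 0 for 26 genes, held 0 for 20 and lay above 0 for 0. No such count of intervals over all measured genes was at hand to set beside this. The median log2 ratio was -0.27. A second random thinning called 7 lower and the full UMIs of the same cells called 3, and only CDCA3 and PSRC1 were called by all 3. Ratios lay below 0 for 40 genes in the second thinning and for 44 with the full UMIs. No such count over all genes was at hand. CDCA3 had 31.6 UPM in 4B4 and 61.4 UPM in control cells of the class (-0.96, -1.40 to -0.55). PSRC1 had 13.6 UPM in 4B4 and 27.6 UPM in control cells of the class (-1.02, -1.71 to -0.39), or -0.82 with all UMIs. AURKB, CENPA and KIF20A were called in 2 of the 3. At the first thinning BUB1B (0.21), KIF11 (0.08), TACC3 (0.04), NCAPD2 (0.04), HJURP (0.01), CDC25C (0.01) and CKAP2 (0.00) had intervals that hold 0. With all UMIs of the same cells, the intervals of TACC3 (-0.18, -0.29 to -0.08) and CDC25C (-0.26, -0.47 to -0.05) lay below 0. Those of the others still held 0. BUB1B had 73.7 UPM in 4B4 and 63.5 UPM in control cells of the class. By function the summed log2 ratios in the class were -0.43 for cyclins, kinases and APC/C, -0.26 for kinetochore, -0.23 for spindle, -0.16 for cytokinesis and -0.25 for chromosome genes.

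**Figure D4:**
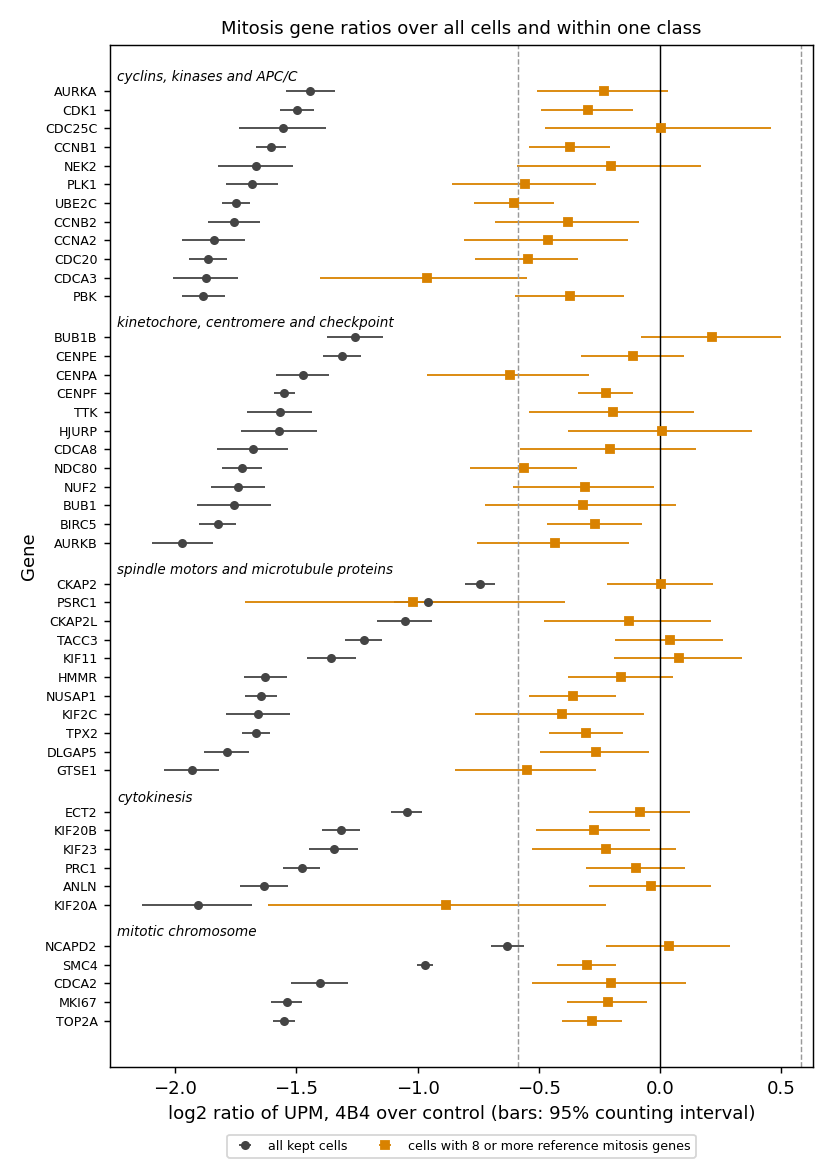
Log2 ratio of UPM, 4B4 over control, for each gene over all kept cells (grey circles) and within cells holding 8 or more reference mitosis genes at 17000 UMIs (orange squares). Bars are 95% counting intervals and dashed lines mark 1.5-fold. The medians are -1.59 over all cells and -0.27 within the class; on mean UMIs per cell the grey points of SMC4, NCAPD2, CKAP2, CKAP2L, PSRC1 and ECT2 would lie above 0.

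The genes nearest to 0 over all cells were those least confined to that class. The share of a gene's UMIs that fell in cells with 8 or more reference genes was 28.1% in 4B4 and 50.4% in control cells for NCAPD2, and 32.4% in 4B4 and 60.4% in control cells for CKAP2. For SMC4 it was 34.2% in 4B4 and 62.2% in control cells, for ECT2 41.3% in 4B4 and 63.7% in control cells, and for PSRC1 16.9% in 4B4 and 59.5% in control cells. These 5 were the only genes under 65% in the control library. Over the 46 genes the median was 73.8% in 4B4 and 82.5% in control cells, and 43 were lower in 4B4; PBK, BUB1 and BIRC5 were the others. DLGAP5, for example, had 86.4% of its UMIs there in 4B4 and 88.7% in control cells. These shares and the log2 ratios both use the control library, so they are values side by side.

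Cells were split further by 20 S phase genes. Cells with 9 or more S phase genes and 8 or more mitosis reference genes were 63 in 4B4 and 464 in control, and cells with 8 or more mitosis reference genes but fewer S phase genes were 32 in 4B4 and 142 in control. The cut of 9 was chosen after the data had been seen. At equal depth the level in cells with mitosis genes only stood above that in cells with both sets for 40 of 46 genes in 4B4 and 46 of 46 in control. The interval of the fold lay above 1 for 20 genes in 4B4 and 42 in control, and its median was 1.37 in 4B4 and 1.42 in control. With all UMIs of the same cells, a check added after the data had been seen, 41 genes in 4B4 and 46 in control stood above, 28 intervals in 4B4 and 44 in control lay above 1, and the medians were 1.27 in 4B4 and 1.36 in control. KIF20A, a motor of late mitosis, had the largest fold in both libraries, 4.59 in 4B4 (1.66 to 14.6, from 14 and 6 UMIs) and 2.78 in control (2.13 to 3.62). With all UMIs it was 2.59 in 4B4 (1.87 to 3.61) and 2.38 in control (2.04 to 2.77). PLK1 had a fold of 3.62 in 4B4 and 1.85 in control, or 2.13 in 4B4 and 1.82 in control with all UMIs. The fold of NEK2 was 3.10 in 4B4 and 1.86 in control, or 2.00 in 4B4 and 1.99 in control with all UMIs. The 4B4 folds of these 3 genes thus moved by over 1.5 times with the depth used. CCNB1 moved less, at 2.61 in 4B4 and 2.21 in control, or 2.07 in 4B4 and 2.01 in control with all UMIs. ANLN was level between the classes, at 1.18 in 4B4 (0.84 to 1.66) and 1.01 in control (0.87 to 1.17). CDK1 alone had an interval below 1 at equal depth, with a fold of 0.61 in 4B4 (0.45 to 0.82) and 1.16 in control (1.05 to 1.28). With all UMIs it had 147 UPM in mitosis-only cells and 187 UPM in cells with both sets in 4B4, against 232 UPM and 192 UPM in control. MKI67 had a fold of 0.98 in 4B4 (0.77 to 1.23) and 1.29 in control (1.18 to 1.41), and its 4B4 interval lay below 1 with all UMIs only, at 0.90 (0.82 to 0.98). UBE2C had 0.98 in 4B4 (0.78 to 1.24) and 1.71 in control (1.59 to 1.84). The difference between the libraries in these folds was not tested. These intervals count UMIs, not cells, and the 4B4 side rests on 32 and 63 cells.

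**Figure D5:**
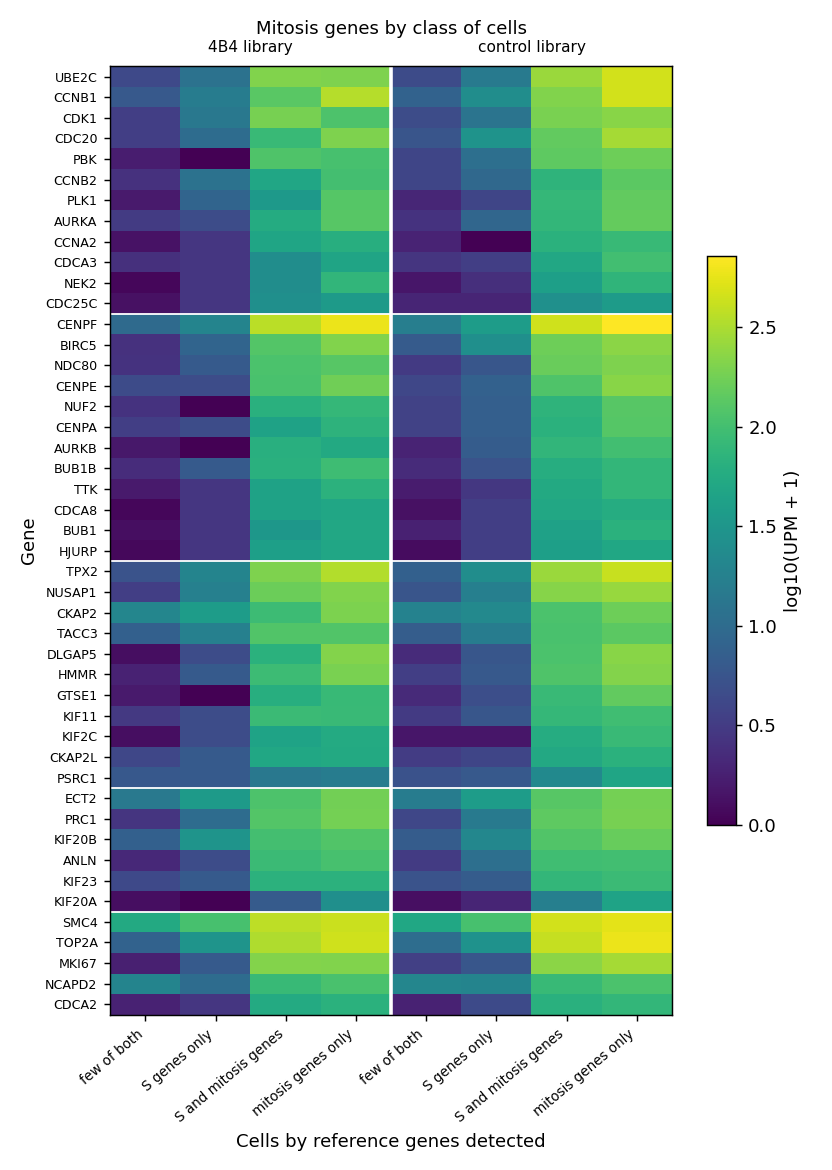
Level of each gene, as log10(UPM + 1), in 4 classes of cells at 17000 UMIs each, for the 4B4 library (left) and the control library (right); white lines part the function groups. Levels are highest in cells with mitosis reference genes, which number 63 and 32 in 4B4 and 464 and 142 in control.

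Outside the cycling classes most of the genes were under 5 UPM. Cells with few reference genes of either kind were 1076 (82.1%) in 4B4 and 1948 (62.9%) in control, and there the 46 genes summed to 194 UPM in 4B4 and 228.5 UPM in control cells. SMC4 had 53.1 UPM in 4B4 and 49.8 UPM in control cells there, and CKAP2 had 19.7 UPM in 4B4 and 17.3 UPM in control cells. At equal depth 12 genes reached 5 UPM in either library and 9 in both. CENPF and BIRC5 were called lower, where 3.05% of all measured genes were, and BIRC5 reached the floor through the control library alone. With all UMIs of these cells, 12 genes reached 5 UPM in either library and 9 in both, and 4 were called lower and 0 higher, where 3.42% of all measured genes were called lower and 1.69% higher. BIRC5 had 2.19 UPM in 4B4 and 6.46 UPM in control cells (-1.56, -1.81 to -1.32), and CDC20 had 3.06 UPM in 4B4 and 5.73 UPM in control cells (-0.91, -1.13 to -0.68). Both reached the floor through the control library alone. CENPF had 9.38 UPM in 4B4 and 14.7 UPM in control cells, and TOP2A had 6.35 UPM in 4B4 and 9.70 UPM in control cells. Over all 46 genes, with no such count for all measured genes at hand, 25 intervals lay below 0, 19 held 0 and 2 lay above 0. Those above were CKAP2L, with 3.55 UPM in 4B4 and 2.48 UPM in control cells, and SMC4, with 51.7 UPM in 4B4 and 49.0 UPM in control cells. Cells with S phase genes only were 32 in 4B4 and 121 in control, with 480 UPM of the 46 genes in 4B4 and 569 UPM in control cells. The part of free RNA in these low levels was not tested.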

How the data were processed

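Single-cell RNA of 2 samples was analysed, 4B4 and control, grouped by the treatment labels, with 1 library each. The values deposited by the authors are unnormalised UMI counts for each gene in each barcode, written by Cell Ranger 7.1.0, per the file headers. The submitters' processing notes name GRCh38 and Seurat 5.0.1 without their role. No source used here gives the authors' gene annotation. The 46 genes and all lists, classes and pairs were chosen with earlier results of these data known. All 46 genes are named in the text, with up to 4 genes of the largest ratios from the other lists and exceptions where 5 or fewer.

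Barcodes under 1000 genes or above 20% mitochondrial UMIs were dropped, leaving 1385 cells in 4B4 and 3402 in control, with 116451080 UMIs in 4B4 and 127218114 in control. No doublet caller was run, so doublets remain among the cells. Sums were divided by the library total and multiplied by 1000000. Ratios have Clopper-Pearson intervals of the conditional binomial share, sums exact Poisson intervals and shares Clopper-Pearson intervals, all at 95% and for counting error only. With 1 library per group no p-value was computed. Thinning to 17000 UMIs was without replacement. Promoter windows came from RefSeq (GRCh38.p14) and exons from GENCODE release 29, which may differ from the authors' annotation. The stage classes' S phase cut, the mean per cell, the second thinning and the checks on all UMIs were chosen after seeing the data. The calls were tested on simulated counts that vary by counting error alone, which says nothing of variation between cells or libraries. Python 3.11.15, NumPy 2.4.6, SciPy 1.17.1, pandas 2.3.3, Matplotlib 3.10.9 and, for TMM factors, edgeR 4.0.16 in R 4.3.3 were used.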

Additional observations from a re-analysis of the deposited data

How the results depend on the processing

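No paired analysis was possible because each group had 1 library and no test was made. The count of genes called lower was 44 to 46 under the other planned settings, where 3.96% to 8.37% of all genes were, with all 32 of the 32 genes measured at a floor of 20 UPM (4.42% of all genes); CKAP2 and NCAPD2 were those lost. Scaling by mean UMIs per cell, added after the data had been seen, gave 11 lower (0.214% of all genes), a median log2 ratio of -0.42 and a summed one of -0.29. On that scale, where the median of all genes was 1.16, SMC4 (0.20), NCAPD2 (0.54), CKAP2 (0.43), CKAP2L (0.12), PSRC1 (0.21) and ECT2 (0.12) turned higher. The median and summed log2 ratios were -1.89 and -1.75 under a stricter filter (2000 genes or more, mitochondrial share up to 10%), -1.44 and -1.29 with each cell weighing the same, -2.42 and -2.04 in cells of 20000 to 60000 UMIs, and -1.85 and -1.64 without the 1% of cells richest in these UMIs. The summed ratio alone moved beyond its interval in thinned cells (-1.38), under TMM (-1.41) and without mitochondrial UMIs (-1.49). Cells with at least 15 genes were 6.11% in 4B4 and 19.2% in control at 10000 UMIs, 18.1% in 4B4 and 28.5% in control without thinning, and 34.8% in control with the stricter filter. At least 10 genes were held by 10.4% in 4B4 and 28.9% in control, and at least 20 by 6.71% in 4B4 and 20.9% in control. The log2 ratio in cells with 8 or more reference genes was -0.23 at 10000 UMIs, -0.24 with another seed, -0.95 without thinning, -0.25 with the stricter filter and -0.23 at 10 or more. The causes of these shifts were not tested. Without thinning, the cut of 8 reference genes met deeper cells in 4B4 than in control. The window of 20000 to 60000 UMIs ended below the 4B4 median of 68556 UMIs. All ratios compare 2 libraries, and 95 4B4 cells limit the class.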
